A study of Homo sapiens with 8 samples.

Results

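Carbonic anhydrase genes were described in a pair of established cell lines of human lung adenocarcinoma, A549 and PC9. The members are 8 genes, CA2, CA4, CA8, CA9, CA11, CA12, CA13 and CA14, taken as all probe sets whose array annotation gives a single member symbol. This rule found 16 probe sets of 49495, for 7 genes of 18244. CA9 had no probe set under its symbol and is not analysed here. The members were chosen with earlier results of these arrays in view and not blindly: the family was selected on the higher CA2 value with EN2 in A549, and which values decided the other members is not recorded. The EN2 comparison in A549, and its difference from PC9, are therefore given for the members as levels, changes with errors and calls, without p-values, and nothing is supported by them.

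Both lines had been infected with a retrovirus carrying EN2, a homeobox transcription factor gene, or with the Neo vector as control, and stable cells were drug-selected. All 4 groups therefore carry a retroviral construct and went through selection. A549 was grown in F-12K and PC9 in Dulbecco's modified Eagle medium, both with fetal bovine serum. The promoter that drives EN2, and whether the selected cells are clones or pools, is not stated in the labels. Each group had 2 arrays, and the labels do not say that these came from separate cultures, so p-values may measure technical spread alone.

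Carbonic anhydrases are zinc enzymes that interconvert carbon dioxide and water with bicarbonate and a proton, and so set the speed at which cells buffer and move acid. CA2 and CA13 are cytosolic enzymes, CA4 is held on the outer membrane by a lipid anchor, and CA9, CA12 and CA14 are transmembrane enzymes with an extracellular active site. CA8 and CA11 are carbonic anhydrase-related proteins that lack the catalytic activity. In tumours the extracellular enzymes are known for acidifying the surroundings of hypoxic cells, and CA9 is a classical target of hypoxia-inducible factors.

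The values are log2 intensities after robust multi-array averaging (RMA), a method that corrects background, aligns the distributions of arrays and combines the probes of a set. The array medians of A549 lay at 6.33 to 6.35 and those of PC9 at 6.10 to 6.11. The lines may have been scaled separately, so every difference between lines carries that limit. As a gauge of background, 100 probe sets for spike-in RNA were used: their 95th percentile, called the spike-in level here, stood at 4.38 for A549 and 3.92 for PC9. This gauge is lenient. Of 10 measured markers of leukocytes, endothelium, fibroblasts and red cells, 7 in A549 and 8 in PC9 read above it on all 4 arrays of the line, with HBB as the highest, at 7.84 in the A549 vector group. The pan-leukocyte marker PTPRC and the fibroblast proteoglycan gene DCN were below it in both lines. Of 5 epithelial markers, all read above it on every array. EPCAM was low in A549, at 5.26 with EN2 and 6.04 with vector, against 11.98 and 12.04 in PC9. With EN2 in A549, 4 of the 5 were called lower by limma's test, CDH1 (E-cadherin, -1.11), EPCAM (-0.77), KRT19 (-0.70) and KRT18 (-0.20), KRT8 (-0.21) was not, and none was called in PC9. A lower value in such bulk RNA cannot tell fewer expressing cells from less RNA per cell. In A549 the 18S rRNA control signal was 11.66 and 12.12 on the EN2 arrays and 12.44 and 12.74 on the vector arrays. The actin 3′-minus-5′ value, a sign of RNA quality, was 0.978 and 0.877 on the former and 0.789 and 0.780 on the latter. In PC9 the 18S rRNA signal was 6.05 to 6.10. The part of these values and of the epithelial markers in the results was not tested, beyond the models with 18S rRNA as a covariate.

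EN2 itself, by its brighter probe set, read 7.71 and 7.62 with EN2 against 6.48 and 6.57 with vector in A549. In PC9 it read 6.24 and 6.39 against 5.86 and 5.78. The arrays of the groups did not overlap in either line, as was so in the higher direction for 24.1% of genes in A549 and 17.7% in PC9. On the log2 scale the gap was 1.15 in A549, which passed limma's test. In PC9 it was 0.50, which did not pass (limma adjusted p = 0.0801). The dimmer EN2 probe set is not given here.

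Comparing EN2 with vector in A549 asked which carbonic anhydrases changed with the transcription factor. The cytosolic enzymes CA2 and CA13 rose, and the other 5 measured members did not pass the threshold of limma's test (Benjamini-Hochberg adjusted p below 0.05 over 18244 genes). Of all genes tested, 1.57% passed as higher and 1.15% as lower in this comparison, which holds the known CA2 change and is read here as description. The median log2 change of the 7 members was 0.19, beside -0.0015 over all genes.

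CA2 is the fast cytosolic isoform of red cells, kidney and many epithelia. In A549 it read 8.60 and 8.44 on the EN2 arrays and 6.78 and 6.98 on the vector arrays. Both EN2 arrays lay far above both vector arrays. The group means were 8.52 ± 0.11 and 6.88 ± 0.14 (SD, n = 2 arrays each). CA2 was 3.11-fold higher with EN2, a log2 change of 1.64 ± 0.12 (SE), the 5th highest of 18244 genes. The gene has 1 probe set on the array, so no second set could be compared. With 18S rRNA added to the model as a covariate the change was 1.58 ± 0.24 (SE), which did not pass. In A549 both EN2 arrays had a lower 18S rRNA signal than both vector arrays, so that model can hardly separate this signal from EN2.

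CA13 encodes another cytosolic enzyme of broad tissue distribution. Its brightest probe set read 7.11 and 6.96 with EN2 and 5.83 and 5.92 with vector in A549. The groups did not overlap, which in the higher direction was so for 24.1% of all genes in A549. The means were 7.04 ± 0.11 and 5.88 ± 0.060 (SD, n = 2 arrays each), a 2.24-fold rise and a log2 change of 1.16 ± 0.095 (SE), the 18th highest of all genes. The other CA13 probe sets were dimmer and moved less. One of them read 5.11 and 5.13 with EN2 and 4.65 and 4.58 with vector, a change of 0.51 ± 0.13 (SE) that did not pass over the 49293 probe sets tested. The dimmest changed by 0.077 ± 0.11 and was under the spike-in level on every array. Averaged over its 3 probe sets, the CA13 change was 0.58 and still passed. The call ended with the 18S rRNA covariate (1.05 ± 0.21) and when EN2 replicate 1 and vector replicate 2 of A549, the extremes of that signal, were both left out (1.13 ± 0.14).

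CA8, a related protein without enzyme activity that binds the inositol trisphosphate receptor, read 8.17 and 7.98 with EN2 and 7.63 and 7.73 with vector in A549. The other CA8 probe set read 7.04 and 6.88 with EN2 and 6.43 and 6.50 with vector. On both sets the EN2 arrays lay above the vector arrays, as for 22% of all probe sets, by 0.40 ± 0.10 and 0.50 ± 0.13 (SE). Neither change passed by itself, but the mean of the sets, 0.45 ± 0.081, did.

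CA12, the transmembrane enzyme of several carcinomas, had the opposite sign in A549. Its brightest probe set by the mean of all arrays read 11.56 and 11.51 with EN2 and 11.98 and 11.76 with vector, a change of -0.33 ± 0.13 (SE). On each of the 5 CA12 probe sets both EN2 arrays were below both vector arrays, with changes from -0.45 to -0.27. The 2 sets at -0.27 ran in parallel over the A549 arrays, with equal SDs, and are hardly separate measurements there. None passed the threshold. Of all probe sets, 24.2% had lower EN2 arrays without overlap in A549, and the CA12 sets measure a single gene, so they do not count as separate observations.

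The membrane enzymes CA4 and CA14 and the inactive CA11 showed small or no separation in A549. CA4 read 5.60 and 5.20 with EN2 and 5.51 and 5.39 with vector, and CA11 read 7.42 and 7.41 against 7.44 and 7.22. The arrays of both genes overlapped. CA14 read 5.11 and 5.35 against 5.00 and 5.08, a narrow gap that did not pass (0.19 ± 0.12 SE). Its other 2 probe sets were below the spike-in level in A549 and overlapped.

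**Figure D1:**
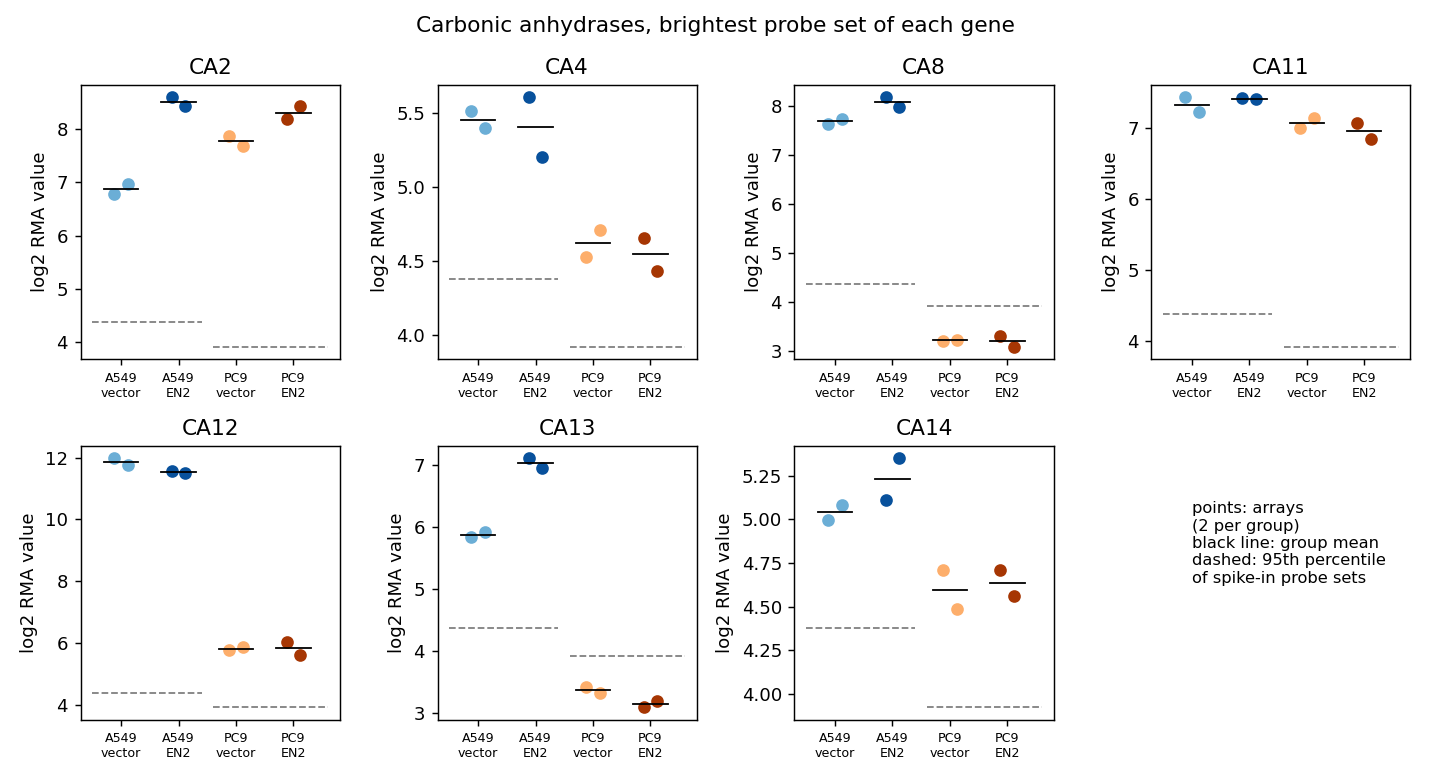
Log2 RMA values of the brightest probe set of each of the 7 measured carbonic anhydrases, by group, with a point per array and a line at the group mean; dashed lines mark the spike-in level of each line, and the vertical range differs between panels. CA2 and CA13 stand higher with EN2 in A549, CA12 is far higher in A549 than in PC9, and CA8 and CA13 lie under the dashed line in PC9.

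In PC9 the same comparison asked whether the enzymes changed in a second line. No member gene passed as higher or lower, where 0.148% and 0.219% of all genes did. At an unadjusted limma p under 0.05 there were 2 of 7, CA2 and CA13, and CA13 was under the spike-in level. The share of all genes at that unadjusted level was not counted, so this count is not read as a result. The median log2 change of the members was -0.025, beside 0.0040 over all genes. CA2 read 8.19 and 8.43 with EN2 and 7.88 and 7.68 with vector. Its arrays did not overlap, as was so in the higher direction for 17.7% of genes. The change of 0.53 ± 0.12 (SE; 95% interval 0.27 to 0.79) fell short in limma's test (adjusted p = 0.166). It lay between 0.41 and 0.65 under the 18 alternative settings, and none of them called it.

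CA13 and CA8 were under the spike-in level on all PC9 arrays by their brightest probe sets, so their PC9 changes cannot be read. CA13 read 3.09 and 3.20 with EN2 and 3.43 and 3.32 with vector. CA8 read 3.31 and 3.10 against 3.22 and 3.24. For CA12 the brightest probe set overlapped in PC9, with 6.04 and 5.62 with EN2 and 5.77 and 5.86 with vector. On 2 of its 5 probe sets the EN2 arrays were lower without overlap, as for 15.7% of all probe sets, by 0.36 ± 0.092 (SE) and 0.32 ± 0.082, and neither passed limma's test over all probe sets (adjusted p = 0.308 and 0.327). They are the 2 CA12 sets that ran in parallel in A549. CA4 (4.66 and 4.43 with EN2, 4.53 and 4.71 with vector) and CA11 (7.08 and 6.85, against 7.01 and 7.15) overlapped. So did the brightest CA14 set, at 4.71 and 4.56 against 4.71 and 4.48. A dimmer CA14 probe set had higher EN2 arrays, 4.60 and 4.53 against 4.32 and 4.34 (as for 17.1% of all probe sets), and did not pass (0.23 ± 0.088 SE; limma adjusted p = 0.681).

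**Figure D2:**
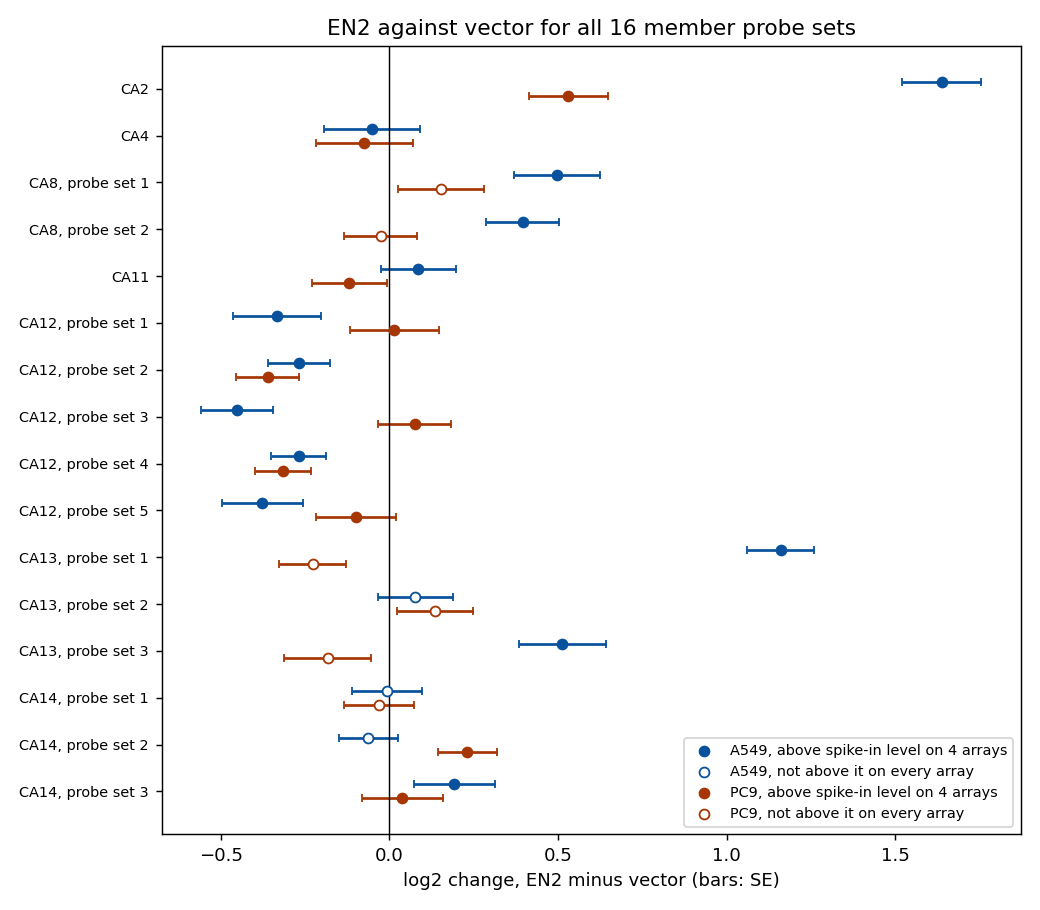
Log2 change of EN2 against vector with its SE for each of the 16 member probe sets, A549 in blue and PC9 in orange, with open symbols where a set was not above the spike-in level on all 4 arrays of the line. CA2 and the first CA13 set reach 1.64 and 1.16 in A549, and the 5 CA12 sets all lie left of 0 in A549.

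The CA2 change with EN2 was 1.11 ± 0.16 (SE) larger in A549 than in PC9. The A549 values that brought CA2 into view enter this difference, so it is a description. CA2 and CA13 were both called in limma's fit of the difference, as were 0.46% of genes in this direction. For CA13 the PC9 side is under the spike-in level, so the size of its difference cannot be read. The CA2 difference lost its call, at 0.99 to 1.21, when 1 of several arrays was left out: A549 EN2 replicate 1, either A549 vector array, PC9 EN2 replicate 1 or either PC9 vector array. No other member passed, with differences from -0.35 for CA12 to 0.42 for CA8.

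Genes that varied most like CA2 within the lines were ranked by Pearson's r over the 8 arrays after each line's mean had been removed, among 15951 genes above the spike-in level. For CA2 the highest was EN2 itself (r = 0.994), followed by MICALL2 (0.993), CCP110 (0.985), LY6K (0.984) and MZT1 (0.984). The last 4 changed with EN2 in A549 by only 0.44, 0.25, 0.30 and 0.11, against 1.64 for CA2. EN2 is the gene that defines the groups, and the family was selected on the CA2 change with EN2 in A549. A high r between CA2 and EN2 was therefore largely fixed by that choice and supports nothing. The ranking of the other 4 genes rests largely on the same A549 change and supports nothing either. These r values rest on 4 groups of 2 arrays and are given as a description. No such ranking is given for CA13, which was under the spike-in level in PC9.

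CA13, CA1, CA3 and CA2 are neighbours on a single chromosome arm in the GRCh38.p14 annotation, in this order, and form the cluster of cytosolic isoforms. The 2 genes that changed are at the ends of the cluster, and the 2 between them did not pass. CA1, the abundant red cell isoform, changed by 0.081 ± 0.093 (SE) in A549, and CA3, the muscle isoform, by -0.25 ± 0.089. Both were below the A549 array medians, CA1 at 5.12 with EN2 and 5.04 with vector and CA3 at 5.35 and 5.60. Outside the cluster, RBIS and E2F5 beside CA13 changed by -0.21 and 0.27, and PSKH2 and ATP6V0D2 beside CA2 by -0.021 and 0.11 in A549, and none passed. ATP6V0D2 was above the spike-in level on only 1 A549 array, so its change cannot be read. These neighbours were chosen after values were seen. CA8, elsewhere on the same chromosome, has the measured neighbours TOX (0.17) and RAB2A (-0.0088), which did not pass in A549 either. TOX was under the spike-in level on every A549 array, so its change cannot be read.

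**Figure D3:**
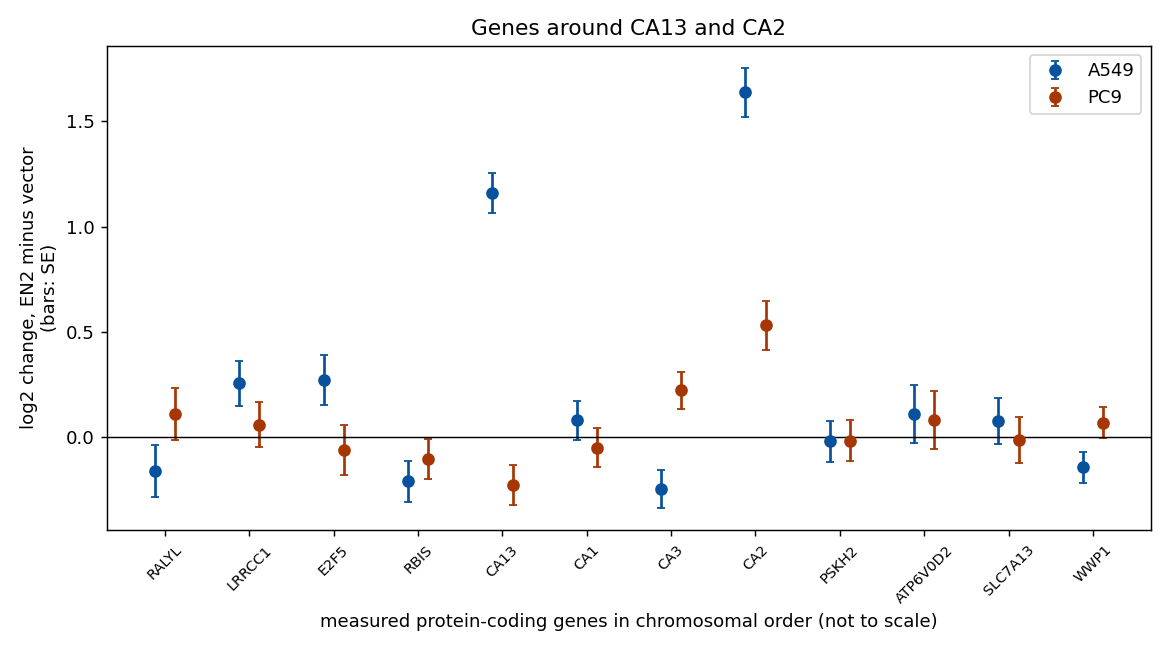
Log2 change of EN2 against vector with its SE for 12 measured protein-coding genes in chromosomal order around CA13 and CA2, A549 in blue and PC9 in orange; spacing is not to scale. CA13 (1.16) and CA2 (1.64) stand above all the other genes in A549, and CA1 (0.081) and CA3 (-0.25) between them did not pass. LRRCC1 and SLC7A13 were under the spike-in level on all arrays of both lines.

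The vector controls of the lines were compared to describe which carbonic anhydrases each line expresses. Of the 7 members, 5 were higher in A549 and CA2 was lower by limma's test, where 46% of all genes were called higher and 29.7% lower. Calls are thus common in this comparison, and the sizes say more. Which values decided the members other than CA2 is not recorded, and the A549 vector values also enter the EN2 change in A549. The p-values printed for these members between the lines are therefore descriptions and not support. The median difference of all genes was 0.17 as deposited and -0.025 after quantile normalisation over all arrays. Over the 16 probe sets, 12 were higher in A549, 3 were lower and 1 was not called, where 47.7% and 26.5% of all probe sets were called higher and lower.

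CA12 had the widest gap. Its brightest probe set read 11.98 and 11.76 in A549 vector cells and 5.77 and 5.86 in PC9 vector cells. The difference of 6.06 ± 0.13 (SE) on the log2 scale is 66.5-fold (limma adjusted p = 2.64e-10), and it ranked 25th highest of all genes. Across the 5 CA12 sets the difference ran from 2.78 to 7.86, all higher in A549. The 2 sets that read highest in A549, at 12.61 and 12.58, gave 7.81 and 7.86, and the dimmest, at 7.44, gave 2.78. Those highest 2 ran in parallel in A549 and are hardly separate measurements there. The size thus depended on the probe set, while the direction did not.

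The promoter of CA12 is shown because no other member differed as much between the lines, and that of CA14 because it is the other measured member in the RefSeq promoter table (3 of 8 members matched; CA2, CA4, CA8, CA11 and CA13 had no entry, and CA9 is not measured). Each window is the 250 bases before the annotated start in GRCh38.p14, 5′ to 3′ on the gene's strand. CA12 is at chr15:63381847-63382096 on the minus strand and CA14 at chr1:150257524-150257773 on the plus strand. Capitals mark matches, on either strand, to homeobox-type cores TAATTA and TAATTG or to the hypoxia-response cores ACGTG and GCGTG.
CA12: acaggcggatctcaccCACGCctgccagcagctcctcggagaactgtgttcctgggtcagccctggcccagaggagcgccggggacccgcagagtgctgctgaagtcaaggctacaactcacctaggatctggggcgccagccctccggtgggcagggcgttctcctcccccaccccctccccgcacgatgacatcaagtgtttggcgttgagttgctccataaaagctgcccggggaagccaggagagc
CA14: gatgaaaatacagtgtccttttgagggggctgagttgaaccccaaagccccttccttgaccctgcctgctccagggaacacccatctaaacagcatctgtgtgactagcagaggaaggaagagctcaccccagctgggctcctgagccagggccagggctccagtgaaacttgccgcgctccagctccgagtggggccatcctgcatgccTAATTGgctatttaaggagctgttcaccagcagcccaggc
The CA12 window held 1 GCGTG on the opposite strand, beginning 234 bases before the start, and no other match. Of all 35116 windows of this length, 32.2% held GCGTG and 18.5% held ACGTG. The CA14 window held 1 TAATTG, 40 bases before the start, as did 6.70% of all windows, while TAATTA occurred in 4.35%. These are letter matches and not binding sites.

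CA8 also marked A549. It read 7.63 and 7.73 in A549 vector cells and 3.22 and 3.24 in PC9 vector cells, the latter under the spike-in level. Set against that level it was at least 13.5-fold higher in A549 by its brightest set (measured difference 4.45 ± 0.10 SE, limma adjusted p = 4.36e-10). The other CA8 set gave a measured difference of only 2.83, or 7.11-fold, so this bound holds for the brightest set alone. CA13 read 5.83 and 5.92 in A549 vector cells against 3.43 and 3.32, at least 3.87-fold higher by its brightest set (measured difference 2.50 ± 0.095 SE; limma adjusted p = 1.05e-08). Its other sets, under the spike-in level in PC9 and one of them in both lines, gave measured differences of only 0.97 and 1.03, so the bound holds for the brightest set alone. CA4 was higher in A549 by 0.83 ± 0.14 (SE, limma adjusted p = 0.000386), and by 0.43 after quantile normalisation (adjusted p = 0.0213). The 10 measured markers of other cell types differed between the vector controls by -2.23 (CDH5) to 1.13 (PDGFRB). PTPRC, under the spike-in level in both lines, differed by 0.71. A gap of the size of CA4 was thus also seen among genes that mark other cell types.

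CA2 ran the other way. The PC9 vector cells, at 7.88 and 7.68, were above the A549 vector cells, at 6.78 and 6.98, a difference of -0.90 ± 0.12 (SE). The A549 vector values enter the change on which CA2 was chosen, so this is a description without a p-value. In order, the CA2 means were 8.52 in A549 with EN2, 8.31 in PC9 with EN2, 7.78 in PC9 with vector and 6.88 in A549 with vector. The arrays of the top groups were close, at 8.44 to 8.60 and 8.19 to 8.43, and the scale between the lines is not known, so their order is not settled. For CA13 the order was 7.04, 5.88, 3.37 and 3.15, with the PC9 groups last and under the spike-in level. CA11 did not pass (0.25 ± 0.11 SE; limma adjusted p = 0.059). The brightest CA14 set was higher in A549 by 0.44 ± 0.12 (limma adjusted p = 0.00595), while its other sets were lower by 0.60 and 0.83. On the mean of its sets CA14 was -0.33, so its direction between the lines was not settled.

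**Figure D4:**
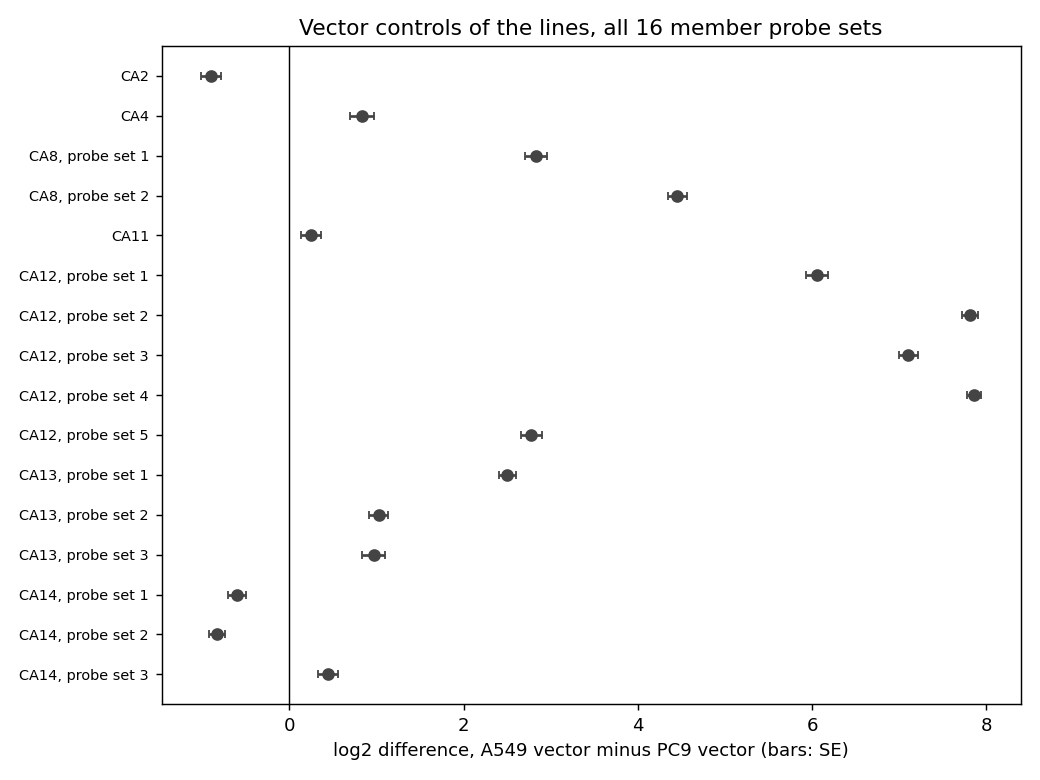
Log2 difference of A549 vector minus PC9 vector cells with its SE for the 16 member probe sets. The 5 CA12 sets lie between 2.78 and 7.86, CA8 reaches 4.45, CA2 lies at -0.90 and the 3 CA14 sets fall on both sides of 0.

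Other genes of the pathway were counted from lists chosen with earlier results of these data known. Of the 7 remaining carbonic anhydrases, CA1, CA3, CA5A, CA5B, CA6, CA7 and CA10, none passed limma's test in A549 or PC9, and their median change in A549 was 0.047. CA10 was under the spike-in level on all arrays of both lines. At an unadjusted p under 0.05 there were 2 of the 7 in each line. The share of all genes at that level was not counted, so such counts, here and below, are not read as results about the lists. Of 17 measured bicarbonate transporters, 12 were above the spike-in level on at least 2 arrays in each line. Of all 17, none passed in either line (median -0.0036 in A549 and -0.043 in PC9), with 1 in A549 and 3 in PC9 at an unadjusted limma p under 0.05. Between the vector controls 11 of them were called higher in A549 and 3 lower, where 46% and 29.7% of all genes were. SLC4A4, the sodium bicarbonate cotransporter, changed by -0.018 in A549. Between the vector controls it was at 5.63 in A549 and under the spike-in level in PC9.

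Of 13 measured proton and lactate exporters, NHERF1, a scaffold of the sodium-proton exchanger, fell in A549 (log2 change -0.54; limma adjusted p = 0.0311) and 12 did not pass. Of 18 V-ATPase subunits, the proton pump of acidic organelles, ATP6V1C1 rose in A549 (0.36; adjusted p = 0.0449) and 17 did not pass. None of either list passed in PC9, with 1 in each at an unadjusted limma p under 0.05. Their medians in A549 were 0.011 and 0.085.

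Of 28 measured targets and regulators of hypoxia-inducible factors beside CA9 and CA12, 2 rose and 1 fell in A549. EGLN1, the oxygen-sensing hydroxylase, rose by 0.63 (limma adjusted p = 0.0248) and EPAS1, which encodes HIF-2 alpha, by 0.43 (adjusted p = 0.0193). SLC2A1, the glucose transporter gene, fell by 0.52 on the log2 scale (adjusted p = 0.0236). The other 25 did not pass, and none passed in PC9, with 3 at an unadjusted limma p under 0.05. Among these 25, EGLN3 (-1.40 ± 0.56 SE) and PDK1 (-0.67 ± 0.18) changed by more in A549 than any gene called on this list. EGLN3 read -0.996 ± 0.56 in PC9. The SEs of EGLN3, NDRG1 (-0.60 ± 0.67 in A549) and P4HA1 (-0.12 ± 0.33) were wide, against 0.12 for EGLN1. For these 3 genes the lack of a call therefore does not show that they were unchanged. All 5 list calls named in A549 were lost without EN2 replicate 1 of A549 (changes of -0.40 for NHERF1, 0.30 for ATP6V1C1, 0.49 for EGLN1, 0.36 for EPAS1 and -0.55 for SLC2A1). They were also lost without vector replicate 2 of A549, with changes, in the same order, of -0.51, 0.27, 0.66, 0.35 and -0.50 (limma adjusted p from 0.142 to 0.295). With the 18S rRNA covariate the changes were -0.18, 0.090, 0.41, 0.16 and -0.53, none called. The median was -0.051 in A549 and -0.087 in PC9. Shares of lists called stand beside the 1.57% higher and 1.15% lower of all genes.

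**Figure D5:**
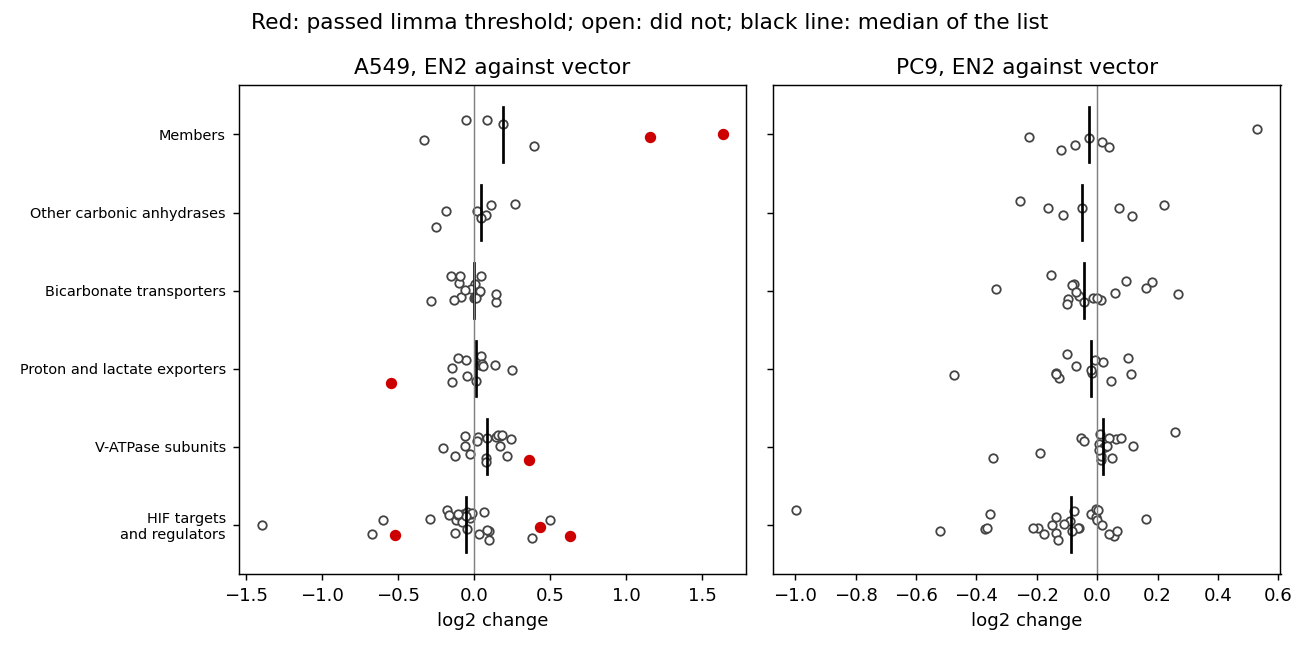
Log2 change of EN2 against vector in A549 and PC9 for the 7 members and the 5 pathway lists, with a point per gene, red where limma's test passed and open where it did not, and a line at each median; the horizontal scales differ. CA2 and CA13 at 1.64 and 1.16 are the highest points of the A549 panel, and no point is red in PC9.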

How the data were processed

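Total RNA of A549 and PC9 cells was labelled with biotin and hybridised to 1-colour arrays, 8 in all, in 4 groups of 2, per the labels. The authors deposited log2 probe set values, and the submitters' processing notes name RMA. Neither its version nor whether all arrays were normalised together is stated. Of 49495 probe sets, 45284 carried 1 symbol, 1333 several and 2878 none, and 45214 matched GRCh38.p14 symbols by Entrez identifier, a reference used for names and gene order. A gene was represented by its probe set of highest mean, giving 18244 genes.

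All 8 arrays entered 1 limma 3.58.1 model (R 4.3.3) of group means, moderated by eBayes with an intensity trend and leaving 4 residual degrees of freedom. The two-sided tests had Benjamini-Hochberg adjustment over all genes, and calls were made at 0.05. All 49293 probe sets that are not controls were fitted in the same way. An exact permutation test of 2 against 2 arrays cannot give p below 0.333. The method was tested on simulated data. The members and lists were chosen with earlier results of these data known. All members were named, with called genes of each list, at most 4 per direction and line, and the 5 genes most similar to CA2. Alternatives were another prior variance, quantile normalisation, median centring, the mean of probe sets, every probe set, a background filter, the arrays of a line alone, a replicate block, the 18S rRNA covariate, leaving out each array and leaving out 2 A549 arrays. The number of arrays limits the precision.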

Additional observations from a re-analysis of the deposited data

Results flagged for a closer look

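Among the members and list genes, the difference between the EN2 changes of the lines passed limma's test for 3. Of the epithelial markers, CDH1 (-1.13), EPCAM (-0.71) and KRT19 (-0.65) also passed, with negative differences (A549 minus PC9). CA2 changed by 1.11 more in A549 than in PC9 on the log2 scale, from 1.64 and 0.53. For CA13 the fitted difference was 1.39, but all its PC9 arrays read under the spike-in level, so neither this size nor a direction in PC9 can be read. ADM, the adrenomedullin gene of the hypoxia list, differed by 1.02, from 0.50 in A549 and -0.52 in PC9, neither of which passed alone. The ADM difference kept its call in 6 of 17 alternatives. Both the CA2 and CA13 differences lost their call with 18S rRNA as a model covariate, at 1.05 and 1.28. Groups of 2 arrays were too small to be examined for outlying arrays.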

How the results depend on the processing

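Under 18 alternatives CA2 stayed higher with EN2 in A549, at 1.54 to 1.73, and was called in 17. CA13 stayed higher, at 0.58 to 1.26, and was called in 16. The number of members called higher in A549 went from 2 to 0 with the 18S rRNA covariate and to 1 without both outer 18S rRNA arrays. It was 2 without any single array, and none was called lower. With the covariate 20 genes of all were called in A549, against 496, and with those 2 arrays left out 25. For the difference between the lines the number called higher went from 2 to 0 under each of these, and it was 1 to 2 without a single array. In PC9 no member was called under any of the alternatives. Between the vector controls 5 were higher and 1 lower; the mean of probe sets gave 2 lower, since CA14 turned to -0.33, and CA14 also lost its call after quantile normalisation (0.024) and median centring (0.20). CA14 was not called there with the covariate (0.30) or without vector replicate 2 of PC9 (0.33), and CA11 became called without vector replicate 2 of A549 (0.36), without either PC9 EN2 array (0.25) or with the mean of probe sets (0.25). The cause was not tested. Genes called over the whole table in A549 numbered 92 with its arrays alone, 1393 with the replicate block and 112 to 623 without 1 array (112 without EN2 replicate 1, 116 without vector replicate 2, 330 and 331 without a PC9 vector array). In PC9 they were 67, then 23 alone, 126 with the block and 19 to 62 without 1 array (19 to 28 without each PC9 array). For the difference they were 143, then 426 with the block, 10 with the covariate, 0 without both outer arrays and 40 to 124 without 1 array (40 without EN2 replicate 1 or vector replicate 2 of A549, 43 to 46 without each PC9 array). For the pathway list genes, to which the alternatives were applied after the data had been seen, the A549 calls were kept in 6 (ATP6V1C1) to 12 (EGLN1) of 18 with no change of direction. With the replicate block, 2 members were called higher in A549 and no member call changed. Same-numbered arrays deviated together at r = 0.349 in A549 and 0.0656 in PC9, and the numbers give no pairing by the labels. Signal near the spike-in level limits CA8 and CA13 in PC9 and CA14 in both lines.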
